A study of Mus musculus with 10 samples.

Results

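The inflammasome and caspase-1 pathway was followed in hematopoietic stem cells (HSCs) through 10 genes taken by symbol from the deposited count table of 26146 genes: the sensors Nlrp3, Nlrc4 and Aim2, the adaptor Pycard, the inflammatory caspases Casp1 and Casp4, the pore-forming effector Gsdmd, the cytokines Il18 and Il1b, and the antagonist Il1rn. All 10 were in the table, and 9 were among the 14165 genes that passed a filter on low counts. The genes were selected on their place in the pathway with their levels in these libraries, and the call of Casp1 between the genotypes, already known. Their difference between the genotypes is therefore a description without p-values, and where members are counted among called genes, the count repeats what was known when they were chosen. RNA was read from sorted LSK CD48- CD150+ HSCs (LSK, lineage-negative cells with Sca-1 and c-Kit on their surface) of 5 Cited2 CTL mice (Cited2 fl/fl without Cre, given as wildtype in the labels) and 5 Cited2 CKO mice (Cited2 fl/fl;Vav-iCre), all on the C57BL/6J background and aged 8 to 12 weeks. Cited2 encodes a transcriptional co-regulator that binds CBP and p300. Vav-iCre recombines throughout the hematopoietic system and not in HSCs alone, and because Cited2 CTL mice carry no Cre, effects of Cre and of Cited2 loss cannot be told apart.

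An inflammasome is a cytosolic complex in which a sensor of microbial or damage signals binds the adaptor ASC (encoded by Pycard), which recruits and activates caspase-1. Caspase-1 cleaves the precursors of IL-1β and IL-18 to their active forms and cleaves gasdermin D, whose amino-terminal part forms pores in the plasma membrane and can end in lytic death, called pyroptosis. Caspase-11, encoded by Casp4 in the mouse, binds cytosolic lipopolysaccharide and cleaves gasdermin D directly. These steps are switched on at the protein level, by assembly and cleavage, so the RNA level of a gene does not report the activity of its protein.

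Deposited counts summed to 3058690 to 4548795 per Cited2 CTL library and 3500215 to 4315029 per Cited2 CKO library, and the common biological coefficient of variation was 25.3%. These totals are far below the average number of sequenced reads per sample that the paper states, and the cause was not tested. The deleted gene was at 163 ± 42.7 CPM (counts per 1000000 of the library total after TMM normalization; SD, n = 5) in Cited2 CTL libraries. It was at 3.80 to 8.30 CPM in 4 of the Cited2 CKO libraries, but the library labelled CKO 3 had 120.1 CPM, within the Cited2 CTL range. Over all 10 libraries Cited2 was not called, with a log2 fold change of -2.51 (quasi-likelihood F test of edgeR, adjusted p = 0.328). The log2 fold change was -4.92 without the library labelled CKO 3. As its Cited2 level singled that library out, no p-value of Cited2 is given for this fit. That library was kept in its labelled group, and values without it are given for most members and some other genes of the pathway. All 8 HSC markers, among them Kit, Procr and Mecom, had counts in every library, with a summed level of 1849 to 2141 CPM in Cited2 CTL and 1637 to 1829 CPM in Cited2 CKO libraries. Because HSCs were sequenced in bulk, fewer cells of a type and less RNA per cell cannot be told apart in any value below.

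Per length, the pathway fell into a well expressed and a barely detected group of genes. In Cited2 CTL HSCs the mean level in CPM per kilobase of gene length was 101 for Il18, 87.5 for Casp1, 73.5 for Gsdmd, 71.9 for Casp4, 51.1 for Pycard and 33.9 for Aim2, against a median of 15.7 over all genes that passed the filter. The other 4 genes were far lower on the same scale, with 3.08 for Il1b, 1.83 for Il1rn, 1.37 for Nlrc4 and 0.131 for Nlrp3. The ranges over the 5 Cited2 CTL libraries overlapped between neighbours among Il18, Casp1, Gsdmd and Casp4, and again among Il1b, Il1rn, Nlrc4 and Nlrp3. Casp4 and Pycard, Pycard and Aim2, and Aim2 and Il1b did not overlap. Transcripts of the adaptor, caspases, gasdermin and IL-18 precursor were thus abundant in control HSCs, whereas the sensors Nlrp3 and Nlrc4 and the IL-1β precursor had at most 36 counts in any library. In Cited2 CKO HSCs Casp1 had the highest mean level per length, 122, followed by Il18 with 106 and Casp4 with 90.6, while Gsdmd had 61.4.

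**Figure D1:**
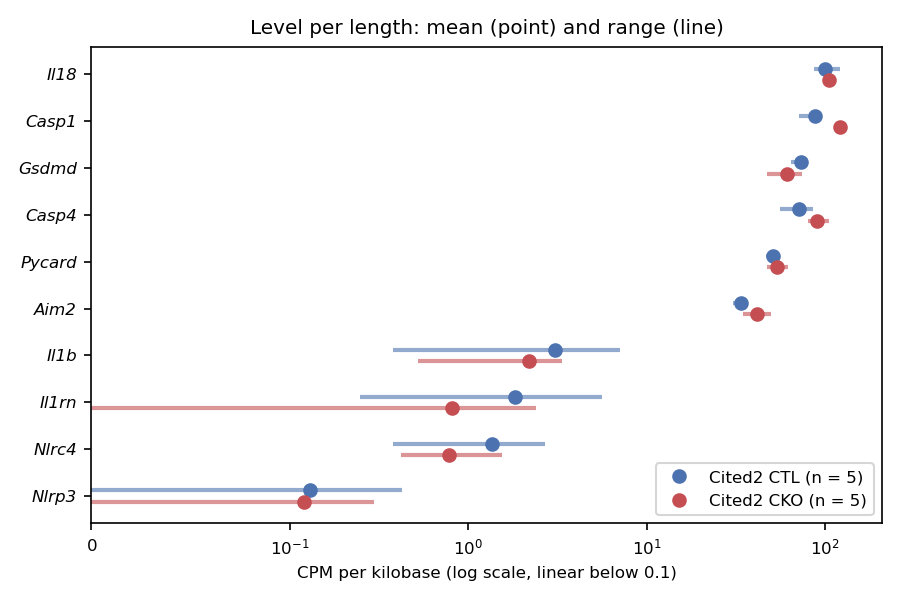
Mean (point) and range (line) of the level per length, in CPM per kilobase on a logarithmic axis that is linear below 0.1, for each of the 10 genes in 5 Cited2 CTL and 5 Cited2 CKO libraries. Il18 to Aim2 lie above 30 in every Cited2 CTL library, and Il1b, Il1rn, Nlrc4 and Nlrp3 lie below 8.

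Casp1 lies on chromosome 9 of GRCm38 from 5298517 to 5307265, on the plus strand, and is followed on the same strand by Casp4 (5308828 to 5336783) and by Casp12 (5345430 to 5373032), which encodes another caspase of the inflammatory group. The gaps between them are 1.56 kb and 8.65 kb, and no other gene of the count table lies within 500 kb of Casp1. The 250 bases before the RefSeq transcription start of each are printed here because these neighbours were all fitted higher in Cited2 CKO HSCs. The RefSeq starts of Casp4 and Casp12 lie inside the spans given above, so the last bases printed for these genes do too. The sequences are from RefSeq (GRCm38.p6), read 5′ to 3′ along the plus strand, at chr9:5298267-5298516, chr9:5308599-5308848 and chr9:5345226-5345475. Capitals mark the motif matches described after them.
Casp1: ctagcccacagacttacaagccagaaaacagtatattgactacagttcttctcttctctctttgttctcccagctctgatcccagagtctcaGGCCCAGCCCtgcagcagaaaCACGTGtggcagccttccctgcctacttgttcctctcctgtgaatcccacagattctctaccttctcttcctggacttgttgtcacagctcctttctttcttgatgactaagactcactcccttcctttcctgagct
Casp4: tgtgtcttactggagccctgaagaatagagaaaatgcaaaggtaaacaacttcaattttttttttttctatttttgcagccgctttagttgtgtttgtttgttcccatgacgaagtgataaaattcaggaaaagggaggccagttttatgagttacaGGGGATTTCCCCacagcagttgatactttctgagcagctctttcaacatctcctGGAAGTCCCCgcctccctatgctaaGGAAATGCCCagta
Casp12: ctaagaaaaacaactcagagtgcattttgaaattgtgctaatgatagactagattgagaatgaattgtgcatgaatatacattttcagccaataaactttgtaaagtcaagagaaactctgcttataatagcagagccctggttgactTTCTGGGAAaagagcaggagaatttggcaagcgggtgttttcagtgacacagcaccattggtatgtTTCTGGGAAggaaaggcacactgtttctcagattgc

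For 6 motifs, both strands of the window from 250 bases before to 50 bases after each start were searched: the interferon-stimulated response element core (GAAA, any 2 bases, GAAA), the STAT motif GAS (TTCNNNGAA), the NF-kB motif (GGG, any 5 bases, CC), the RUNX motif TGTGGT, the E-box CACGTG and the TATA box TATAAA. These occur in 3.44%, 8.30%, 50.8%, 16.8%, 7.15% and 13.6% of the 32851 promoter windows of the table, in that order. The Casp1 window held an E-box whose first base is at -137 and, on the other strand, an NF-kB match at -158. The Casp4 window held NF-kB matches at -39 and -14 and an overlapping group at -93 to -91, which together spell GGGGATTTCCCC. The Casp12 window held the same GAS sequence, TTCTGGGAA, at -102 and at -36. The neighbours therefore shared no motif of the 6 over all 3 windows, and none of the 3 held the interferon-stimulated element. Among the other members, Il1b had a TATA box at -31 and Il18 at -175 on the other strand, Il18 and Nlrc4 had RUNX matches and Nlrp3 and Il1rn NF-kB matches, while the windows of Pycard and Aim2 held none of the motifs. The Aim2 window, chr1:173420354-173420653, belongs to a RefSeq start inside the span printed for Aim2 below, and not to the first base of that span. The Casp4 match at -14 and the Casp12 match at -36 lie inside the spans given for these genes above. The RefSeq starts of Nlrp3, Nlrc4, Il18 and Il1rn also differ from those of the spans printed below. A match is a run of letters and not evidence of binding. Gsdmd had no window in the table.

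Casp1, the protease at the centre of the pathway, was higher in Cited2 CKO HSCs. It measured 108, 133, 136, 144 and 141 CPM in CTL 1 to CTL 5 and 192, 194, 185, 171 and 178 CPM in CKO 1 to CKO 5. Every Cited2 CKO library lay above every Cited2 CTL library, the library labelled CKO 3 included. The means were 132 ± 14.4 and 184 ± 9.87 CPM (SD, n = 5 each), a fitted log2 fold change of 0.47 (standard error 0.08) or 1.39-fold. Reads were not scarce, with 322 to 809 counts per library, and the coefficient of variation between libraries was 10.9% and 5.36% in the genotypes, where counting error alone gives 4.43% and 3.66%. Fits without any 1 of the libraries gave 0.40 to 0.50 on the log2 scale, with 0.47 without the library labelled CKO 3.

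Casp4 measured 80.3, 108, 85.5, 118 and 123 CPM in CTL 1 to CTL 5 and 151, 131, 115, 118 and 134 CPM in CKO 1 to CKO 5. The libraries labelled CKO 1, CKO 2 and CKO 5 lay above the whole Cited2 CTL range, and CKO 3 and CKO 4 lay within it. The fitted log2 fold change was 0.33 (standard error 0.13), and 0.37 without the library labelled CKO 3. Casp12, which was not chosen as a member, measured 145, 142, 128, 152 and 167 CPM in CTL 1 to CTL 5 and 181, 183, 167.3, 170 and 181 CPM in CKO 1 to CKO 5. Its ranges did not overlap, by a narrow margin, and its log2 fold change was 0.26 (standard error 0.08, quasi-likelihood F test of edgeR, adjusted p = 0.176), so it was not called. Genes whose ranges did not overlap with Cited2 CKO higher made up 1.35% of all tested genes.

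**Figure D2:**
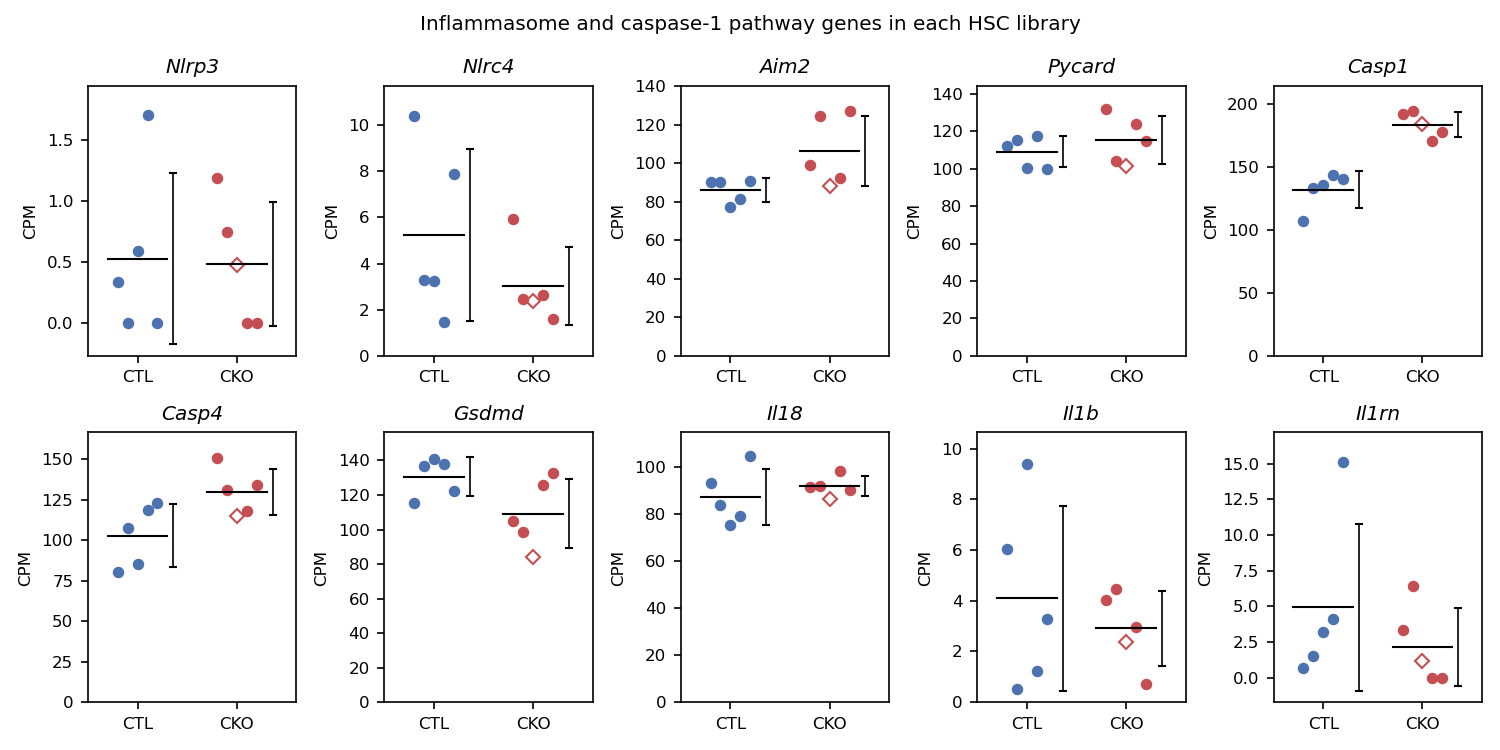
CPM of each of the 10 genes in the 5 Cited2 CTL (blue) and 5 Cited2 CKO (red) libraries, with the mean (line) and SD (bar beside it). The library labelled CKO 3 is the open diamond, each panel has its own axis, and the genotypes separate in the Casp1 panel.

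Of the 9 members that passed the filter, 1, Casp1, was called higher in Cited2 CKO HSCs at an adjusted p under 0.05 and a fold change above 20%, as were 0.120% of all tested genes, and none was called lower, as were 0.106% (quasi-likelihood F test of edgeR, Benjamini-Hochberg adjusted over all tested genes, called the edgeR QL test from here). DESeq2's Wald test also called Casp1 alone of the members, while calling 1.10% of genes higher and 1.44% lower. Fitted log2 fold changes were above 0 for 5 members and below 0 for 4, with a median of 0.07, and 51.0% of all tested genes were above 0, with a median of 0.0065. As the members were chosen with this contrast and the call of Casp1 known, nothing is read from these counts. The call of Casp1 was lost without any 1 of CTL 1 to CTL 5, CKO 1, CKO 2, CKO 3 or CKO 5, and held without CKO 4.

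Aim2, the sensor of cytosolic double-stranded DNA, lies on chromosome 1 from 173350879 to 173466040. It measured 90.3, 90.2, 77.3, 81.4 and 91.0 CPM in CTL 1 to CTL 5 and 98.9, 125, 88.4, 92.3 and 127 CPM in CKO 1 to CKO 5. All Cited2 CKO libraries except CKO 3 lay above the Cited2 CTL range, CKO 4 only just. The log2 fold change was 0.31 (standard error 0.12), and 0.37 without the library labelled CKO 3. Pycard (chromosome 7, 127989708 to 127993867), the adaptor, measured 112, 115, 101, 117 and 99.8 CPM in CTL 1 to CTL 5 and 132, 104, 102, 124 and 115 CPM in CKO 1 to CKO 5. These ranges overlapped widely, with a log2 fold change of 0.08 (standard error 0.09), and 0.12 without the library labelled CKO 3. Exons of Pycard overlap 485 bases of an unverified transcript, Gm45205, on the other strand, and the use of strand in counting was not given in the sources used here.

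Gsdmd (chromosome 15, 75862327 to 75867408), which encodes gasdermin D, went the other way. It measured 115, 137, 141, 138 and 122 CPM in CTL 1 to CTL 5 and 105, 98.7, 83.9, 126 and 132 CPM in CKO 1 to CKO 5. The libraries labelled CKO 1, CKO 2 and CKO 3 lay below the Cited2 CTL range, and CKO 4 and CKO 5 lay inside it. The log2 fold change was -0.26 (standard error 0.12), and -0.18 without the library labelled CKO 3, which was the lowest. The spread between Cited2 CKO libraries, 18.2% as a coefficient of variation, was about that of Aim2, 17.3%, and well above the 4.77% that counting error gives for Gsdmd.

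Il18 (chromosome 9, 50554827 to 50581840) is made as a precursor without prior stimulation in many cells. It measured 93.3, 83.6, 75.3, 79.2 and 104.6 CPM in CTL 1 to CTL 5 and 91.5, 91.8, 86.5, 98.2 and 90.3 CPM in CKO 1 to CKO 5, all of the latter within the Cited2 CTL range. The log2 fold change was 0.07 (standard error 0.10), and 0.09 without the library labelled CKO 3. Across the Cited2 CKO libraries, the library labelled CKO 3 had the lowest CPM for Casp4, Pycard, Aim2, Gsdmd and Il18, and the middle value for Casp1.

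The remaining members had few counts. Nlrp3 (chromosome 11, 59541568 to 59566956), the sensor of potassium efflux and many damage signals, had 10 counts in total in each genotype and 0 to 7 counts per library, and did not pass the filter. It had no count in CTL 2, CTL 5, CKO 4 and CKO 5, where a count of 0 allows up to 3 counts, for example 0.758 CPM in CTL 2. Nlrc4 (chromosome 17, 74425438 to 74459142), the partner of the NAIP receptors for flagellin and bacterial secretion needles, measured 10.4, 3.28, 3.23, 1.46 and 7.88 CPM in CTL 1 to CTL 5 and 5.94, 2.47, 2.36, 2.65 and 1.61 CPM in CKO 1 to CKO 5. These ranges overlapped, and the log2 fold change of -0.79 had a standard error of 0.60 and was -0.71 without the library labelled CKO 3.

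Il1b (chromosome 2, 129364570 to 129371139) encodes the IL-1β precursor, which most cells make only after priming by NF-kB. It measured 6.02, 0.505, 9.41, 1.22 and 3.28 CPM in CTL 1 to CTL 5 and 4.04, 4.45, 2.36, 2.94 and 0.691 CPM in CKO 1 to CKO 5, from 2 to 32 counts per library. The log2 fold change of -0.48 had a standard error of 0.73 and became 0.09 without CTL 3, so these counts give no direction. Its exons share 25 bases with the antisense gene Il1bos. Il1rn (chromosome 2, 24336853 to 24351494) encodes the antagonist that blocks the IL-1 receptor. It measured 0.669, 1.52, 3.23, 4.14 and 15.1 CPM in CTL 1 to CTL 5 and 3.33, 6.43, 1.18, 0 and 0 CPM in CKO 1 to CKO 5. CTL 5 alone held 69 of the 105 Cited2 CTL counts. The log2 fold change of -1.17 (standard error 1.02) became -0.14 without CTL 5, and 0.17 without CTL 5 and CKO 5 together, an alternative chosen after the data were seen.

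CTL 5 and CKO 5 also carried the most neutrophil transcripts. The 9 neutrophil markers, all in the table and 7 of them with counts in every library, summed to 619 CPM in CTL 5 and 347 CPM in CKO 5, and to 50.8 to 219 CPM in the other libraries. Il1rn was highest in CTL 5 and had no count in CKO 5, and Il1b was not highest in either. The part of neutrophil RNA in the Il1rn values was not tested beyond leaving these libraries out. The genotypes differed in other marker sums. The 4 mast cell and basophil markers summed to 33.8 to 56.4 CPM in Cited2 CTL and 58.1 to 118 CPM in Cited2 CKO libraries. Only 1 of these, Cpa3, had counts in every library. Most of the sum was Cpa3, at 36.6 ± 9.71 and 72.01 ± 24.5 CPM (SD, n = 5 each; log2 fold change 0.98, edgeR QL test, adjusted p = 0.0986). The ranges of Cpa3 alone overlapped. Mcpt8 had 35 and 34 counts over the Cited2 CTL and Cited2 CKO libraries, Prss34 11 and 18, and Ms4a2 63 and 117. The sums of the HSC markers, like those of the mast cell and basophil markers, did not overlap, and were lower in Cited2 CKO libraries. Cd48, whose protein was gated out in the sort, was the only marker called, at 21.6 ± 5.53 and 49.02 ± 9.15 CPM (SD, n = 5 each; log2 fold change 1.18, edgeR QL test, adjusted p = 0.0264). The sums of the other marker lists overlapped, with 252 to 285 and 257 to 333 CPM for monocytes and macrophages, 94.3 to 159 and 95.02 to 187 CPM for dendritic cells, 51.2 to 89.9 and 54.4 to 77.1 CPM for B cells, and 65.9 to 108 and 95.9 to 125 CPM for T and NK cells in Cited2 CTL and Cited2 CKO libraries. Those of erythroid cells were 17.9 to 71.1 and 19.9 to 33.9 CPM, of megakaryocytes and platelets 403 to 492 and 385 to 534 CPM, of niche and endothelial cells 17.4 to 43.2 and 25.1 to 62.1 CPM, and of other progenitors 500.1 to 595 and 515 to 562 CPM. Most of the monocyte and macrophage sum was Lyz2, at 228 ± 20.5 and 226 ± 16.8 CPM (SD, n = 5 each). In the same list Itgam was at 17.8 ± 6.77 and 34.6 ± 15.9 CPM (SD, n = 5 each; log2 fold change 0.95, edgeR QL test, adjusted p = 0.230), and Ms4a7, which did not pass the filter, had 9 and 85 counts, with 4 of the Cited2 CKO libraries above every Cited2 CTL library. The exons of Itgam overlap 3450 bases of the gene Gm49368 on the same strand. Ly6c2, another monocyte and macrophage marker, had 161 and 60 counts over the Cited2 CTL and Cited2 CKO libraries, with 122 in CTL 5. Cx3cr1 had 16 and 11 counts, Cd14 25 and 28, Csf1r 60 and 70, Adgre1 57 and 84, and Ccr2 91 and 195. Of the T and NK cell markers 4 of 6, and of the B cell markers 2 of 6, had a median under 3 counts. The part of any of these cells in the differences of Casp1, Casp4, Aim2 and Gsdmd was not tested.

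**Figure D3:**
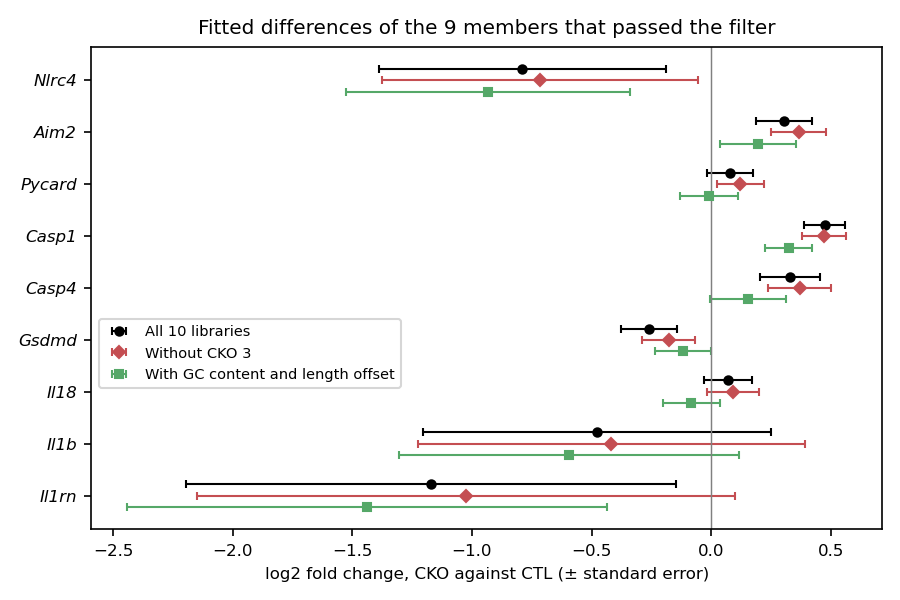
Fitted log2 fold change of Cited2 CKO against Cited2 CTL HSCs with its standard error for the 9 members that passed the filter, over all 10 libraries, without the library labelled CKO 3, and with an offset for length and GC content. The points of Casp1, Casp4 and Aim2 stay to the right of 0 in each, and the offset moves Casp1 from 0.47 to 0.32. With the offset Casp4 is at 0.15 and Aim2 at 0.19, each with a standard error of 0.16, so the bar of Casp4 crosses 0.

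The GC content of the longest transcript was 41.1% for Casp1, 38.1% for Casp4, 42.8% for Aim2, 37.3% for Casp12 and 41.6% for Il1rn, the last of which was fitted lower. It was 54.4% for Gsdmd, and the median over tested genes was 48.8%. Fold changes followed GC content across the table, with a median log2 fold change of 0.12 for the 949 genes of 35 to 40% GC and 0.12 for the 3067 genes of 40 to 45%, and -0.08 for the 3424 genes of 50 to 55%. An offset that removes the trend with GC content and gene length in each library reduced the log2 fold changes to 0.32 for Casp1, 0.15 for Casp4, 0.19 for Aim2, 0.12 for Casp12 and -0.12 for Gsdmd, and turned those of Pycard and Il18 from 0.08 and 0.07 to -0.0092 and -0.08. With it, the standard errors were 0.10 for Casp1, 0.16 for Casp4, 0.16 for Aim2 and 0.12 for Gsdmd. No member was then called, and the background of calls was 0.0353% higher and 0.0212% lower. Such an offset also removes any effect of genotype that follows GC content.

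**Figure D4:**
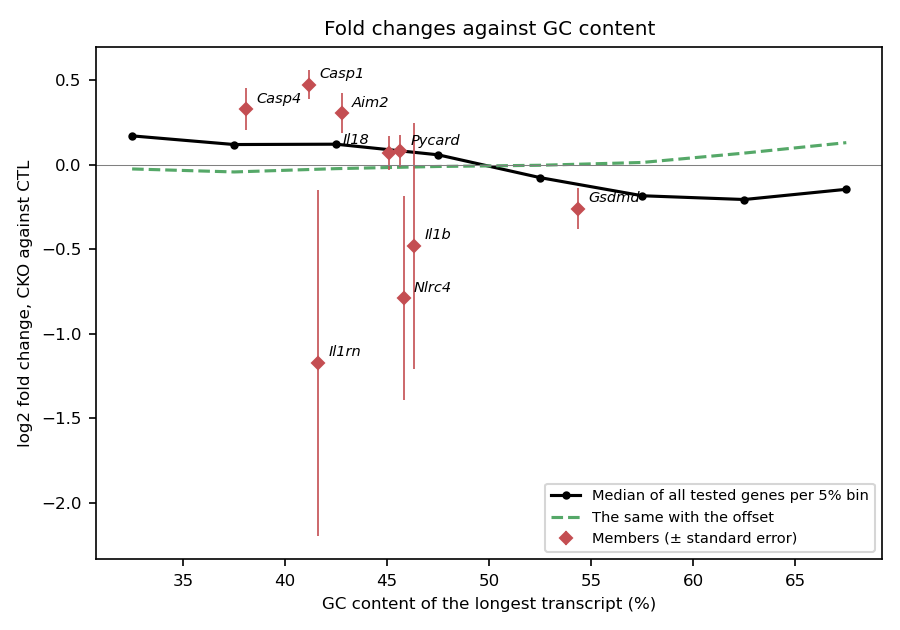
Fitted log2 fold change of Cited2 CKO against Cited2 CTL HSCs against GC content of the longest transcript (%), for the 9 members with standard errors, with the median of all tested genes per 5% bin (black) and the same with the offset (green dashes). Casp1, Casp4 and Aim2 lie above the black line, which runs from 0.17 at the lowest GC contents to below 0 from 50% upwards.

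Other genes of the pathway were read from 6 lists of 83 genes, of which 81 were in the table and 61 passed the filter. None was called by the edgeR QL test. At an unadjusted p under 0.05, 10 were higher and 5 lower in Cited2 CKO HSCs, where 5.80% and 7.08% of all tested genes were. limma-voom called none, and DESeq2 called 2 higher (Ifi213 and Serpinb1a) and 1 lower (Ninj1). The ranges of the genotypes did not overlap for 2 of the 61 genes with Cited2 CKO higher and 2 with it lower. Over all tested genes these shares were 1.35% and 1.98%. The median log2 fold change of the 61 genes was 0.07.

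Among the other sensors and their cofactors, 0 of 13 tested genes were higher and 1, Nlrx1, was lower at an unadjusted p under 0.05. Of all tested genes, 5.80% were higher and 7.08% lower at that p. Nlrx1, a mitochondrial NLR protein, was at 21.0 ± 5.45 and 12.9 ± 5.16 CPM in Cited2 CTL and Cited2 CKO HSCs (SD, n = 5 each). Its log2 fold change was -0.70 (edgeR QL test, adjusted p = 0.336), or -0.48 with the offset. Dpp9, a protease that restrains NLRP1, had a log2 fold change of -0.24 and Naip6 one of 0.36. Naip5, whose protein senses flagellin and needs NLRC4 to signal, was at 106 ± 6.07 and 114 ± 9.30 CPM (SD, n = 5 each), and per length its Cited2 CTL level of 20.1 CPM per kilobase was well above the 1.37 of Nlrc4. The Naip genes are near-identical copies, so their split of reads is uncertain. The kinase gene Nek7, required for NLRP3 activation, was at 145 ± 17.8 CPM in Cited2 CTL HSCs (SD, n = 5), while Nlrp3 itself was nearly absent.

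The AIM2-like receptors, interferon-inducible DNA-binding proteins encoded near Aim2 on chromosome 1, had fitted log2 fold changes above 0 for 7 of 7 tested genes, with a median of 0.57, and 4 had an unadjusted p under 0.05. Over all tested genes, 51.0% were above 0 and 5.80% were higher at that p. Another 4 genes of the list were in the table but did not pass the filter, and of these Ifi214 had 29 counts over the Cited2 CTL and 18 over the Cited2 CKO libraries, Ifi202b 9 and 6, Ifi205 28 and 30, and Ifi211 16 and 44. The signs of the 7 tested genes were the same with the offset, with a median of 0.42, and without the library labelled CKO 3, with 0.54. With the offset, 1 of the 7 was higher at an unadjusted p under 0.05, as were 467 of all 14165 tested genes. Without the library labelled CKO 3, 4 of the 7 were, and 743 of 14148 genes. Ifi213 (173566283 to 173599274) measured 3.34, 3.03, 8.53, 14.6 and 4.38 CPM in CTL 1 to CTL 5 and 25.0, 25.7, 18.2, 10.3 and 36.9 CPM in CKO 1 to CKO 5, with CKO 4 inside the Cited2 CTL range. Its log2 fold change was 1.77 (standard error 0.45, edgeR QL test, adjusted p = 0.117; 0.00961 with DESeq2's Wald test). The offset gave 1.69 for Ifi213 (edgeR QL test, adjusted p = 0.388). The far more abundant Ifi203 and Mndal had log2 fold changes of 0.19 and 0.22, or 0.06 and 0.08 with the offset. Their transcripts have a GC content of 38.4% and 39.2%. Genes of this cluster are close paralogs, and exons of Ifi203 and Mndal overlap by 37 bases on the same strand, so reads could have been counted on more than a single gene or left out.

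Of the 7 other caspases tested, 1, Casp12, had an unadjusted p under 0.05, as did 5.80% of all tested genes in that direction. The apoptotic initiators Casp8 and Casp9 had log2 fold changes of 0.13 and -0.27. Of the 6 tested genes of pores and lysis, Ninj1, whose protein ruptures the plasma membrane in lytic death, was the only gene with an unadjusted p under 0.05. Of all tested genes, 7.08% were lower at that p. Ninj1 measured 148, 129, 134, 116 and 124 CPM in CTL 1 to CTL 5 and 89.8, 87.6, 98.3, 95.8 and 112 CPM in CKO 1 to CKO 5, without overlap, as for 1.98% of all tested genes in that direction. Its log2 fold change was -0.43 (standard error 0.09, edgeR QL test, adjusted p = 0.0781; 0.00547 with DESeq2's Wald test) and -0.21 with the offset, its GC content being 59.4%. Ripk3 and Gsdme, genes of necroptosis and of another gasdermin, had log2 fold changes of -0.15 and -0.37.

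In the IL-1 family, 2 of 10 tested genes were higher and 1 lower at an unadjusted p under 0.05, and those were receptors. The shares of all tested genes at that p were 5.80% higher and 7.08% lower. Il1r1, the signaling receptor for IL-1, measured 15.4, 24.8, 24.7, 34.9 and 33.5 CPM in CTL 1 to CTL 5 and 38.5, 63.1, 38.05, 41.7 and 37.8 CPM in CKO 1 to CKO 5. The ranges did not overlap, and the log2 fold change was 0.71 (standard error 0.22, edgeR QL test, adjusted p = 0.208), or 0.56 with the offset. Il18rap, the accessory chain of the IL-18 receptor, was at 14.5 ± 4.59 and 26.9 ± 12.03 CPM (SD, n = 5 each; log2 fold change 0.89, edgeR QL test, adjusted p = 0.275). Sigirr, an inhibitory member of the receptor family, was at 116 ± 12.3 and 89.5 ± 11.01 CPM (SD, n = 5 each; log2 fold change -0.37, edgeR QL test, adjusted p = 0.168), and -0.30 without the library labelled CKO 3 or -0.16 with the offset.

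Of the 18 regulators of priming and assembly, 3 were higher and 2 lower at an unadjusted p under 0.05. Over all tested genes, 5.80% were higher and 7.08% lower at that p. Serpinb1a, which encodes an inhibitor of neutrophil proteases and of inflammatory caspases, measured 163, 159, 164, 187 and 183 CPM in CTL 1 to CTL 5 and 252, 266, 177, 236 and 223 CPM in CKO 1 to CKO 5. Only CKO 3 lay inside the Cited2 CTL range. The log2 fold change was 0.43 (standard error 0.10, edgeR QL test, adjusted p = 0.0948) over all libraries, and 0.51 (edgeR QL test, adjusted p = 0.0108) without the library labelled CKO 3, where 0.188% of all tested genes were called higher. With the offset it was 0.31 (edgeR QL test, adjusted p = 0.620). Tnfaip3, encoding the NF-kB inhibitor A20, was at 48.2 ± 15.05 and 73.7 ± 9.65 CPM (SD, n = 5 each; log2 fold change 0.61, edgeR QL test, adjusted p = 0.218). The offset gave 0.56 for Tnfaip3. Rela, an NF-kB subunit, was lower by a log2 fold change of -0.20 (edgeR QL test, adjusted p = 0.290), but 0.06 with the offset. Its ranges did not overlap between the genotypes, as for 1.98% of all tested genes in that direction. Nfkb1, which encodes another NF-kB subunit, had a log2 fold change of 0.24 (edgeR QL test, adjusted p = 0.322), 0.31 without the library labelled CKO 3 and 0.15 with the offset.

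**Figure D5:**
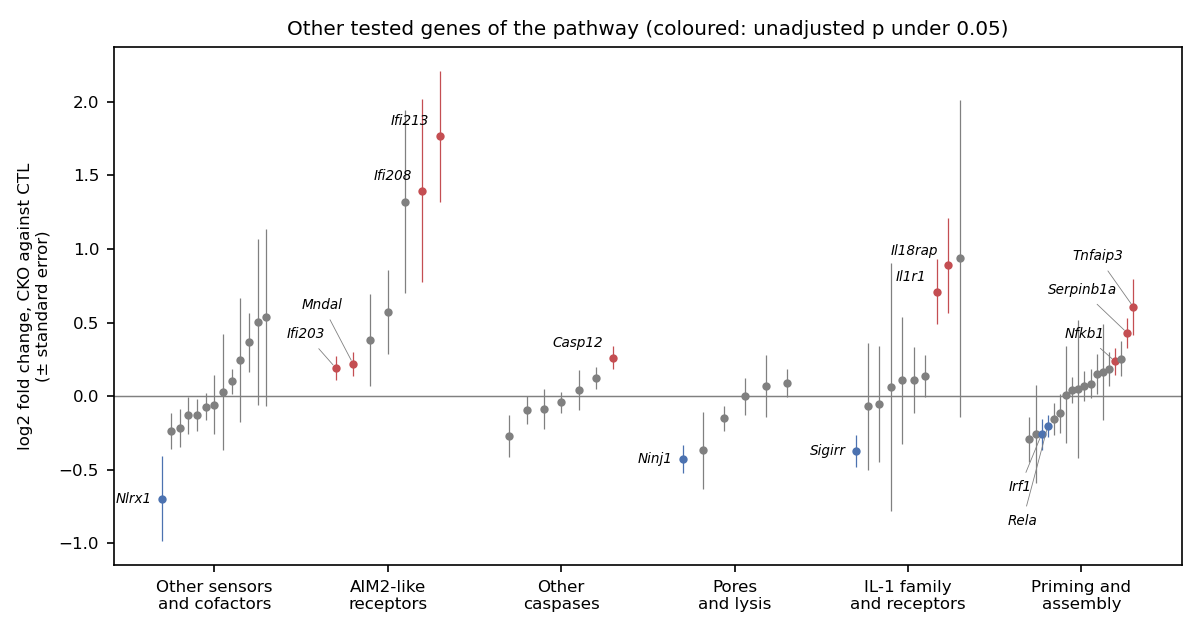
Fitted log2 fold change of Cited2 CKO against Cited2 CTL HSCs with its standard error for the 61 tested genes of the 6 other lists of the pathway, a point per gene. Genes with an unadjusted p under 0.05 are named and coloured (red higher, blue lower), none was called after adjustment, and the 7 AIM2-like receptors all lie above 0.

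Likeness of profile was measured over the 10 libraries as the root mean square distance between log2 CPM values, centred on the mean of each genotype and scaled to an SD of 1, among 11249 genes whose log2 CPM averaged 3 or more. The genes closest to Casp1 were Cop1 (distance 0.26), Ric1 (0.32), Gm10419 (0.35), Jam2 (0.37) and Map3k3 (0.38). The members were measured against Casp1 whatever their level. Casp4 lay at 0.74, Il1rn, with no count in CKO 4 and CKO 5 and a mean log2 CPM of 1.29, at 0.71, and the others at 1.40 to 1.69. For Il1b, whose values rest on few counts, the closest were Efcab7 (0.25), Foxo3 (0.34), Helz (0.39), Melk (0.40) and A830010M20Rik (0.44). With 10 libraries and so many candidates, close profiles are found for any gene, and these are a description.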

How the data were processed

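The data are RNA-seq libraries of LSK CD48- CD150+ HSCs, 1 per mouse, from 5 mice of each genotype. Single-ended reads were mapped by the authors to GRCm38 using HISAT2 and assigned to genes using Rsubread. The deposited tables hold raw counts for each gene symbol and a gene length in bases. The annotation, the use of strand and the treatment of multi-mapping or duplicate reads were not given in the sources used here. Samples were grouped by the genotype in the labels, which number the libraries of each genotype from 1 to 5.

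Analysis used edgeR 4.0.16 under R 4.3.3, with filterByExpr for low counts and TMM for library totals. The genotypes were compared over all 14165 genes with the quasi-likelihood test (robust dispersion, Benjamini-Hochberg adjustment, called at an adjusted p under 0.05 and a fold change above 20%). The standard error is the log2 fold change divided by the square root of the F statistic. CPM used TMM-scaled totals, and levels per length were divided by the deposited length. Log2 CPM for likeness used a prior count of 2. The members, pathway lists, 11 marker lists and motifs were chosen with earlier results of these data known. Named genes were all members, Cited2, each list's called genes and its 3 smallest p-values, and the 5 genes closest in profile to Casp1 and Il1b. Naip5, Nek7, Nfkb1, Ifi202b, Ifi205, Ifi211, Ifi214 and Cd48 were named outside that rule, after their values were seen. So were the markers Kit, Procr, Mecom, Cpa3, Mcpt8, Prss34, Ms4a2, Lyz2, Itgam, Ms4a7, Ly6c2, Csf1r, Ccr2, Cd14, Adgre1 and Cx3cr1. Some genes of the lists are not reported here.

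Alternatives were DESeq2 1.42.0 (Wald test), its size factors in edgeR, limma-voom (limma 3.58.1), no filter, at least 10 counts in every library, the replicate number as a block, a loess offset for GC content and length (span 50%, 98.1% of tested genes matched), both together, no fold change threshold, plain library totals, and each library left out in turn. Leaving out CTL 5 and CKO 5 together was added after seeing the data. Positions, exon overlaps and GC content came from GENCODE M21 and promoters from RefSeq. Scripts were tested on simulated data.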

Additional observations from a re-analysis of the deposited data

Results flagged for a closer look

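The lowest or highest library of each genotype was set against the other 4 by Dixon's gap ratio, whose critical value is 0.71 for 5 samples. In 56 groups checked, 6 lay above it, where chance flags about 1 in 20 groups. Casp1 was lowest in CTL 1, at 108 CPM, apart from 133 to 144 CPM in the other Cited2 CTL libraries. Nlrc4 was highest in CKO 1, at 5.94 CPM from 25 counts, against 1.61 to 2.65 CPM. Il1rn was highest in CTL 5, at 15.1 CPM, against 0.669 to 4.14 CPM. Mndal was highest in CTL 4, at 252 CPM, against 212 to 222 CPM. Ripk3 was highest in CTL 2, at 138 CPM, against 118 to 123 CPM. Il1r1 was highest in CKO 2, at 63.1 CPM, against 37.8 to 41.7 CPM.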

How the results depend on the processing

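Casp1 was called higher among the members under 7 of 20 alternatives. The count of members called higher went from 1 to 0 with the GC content and length offset, with the replicate block (log2 fold change of Casp1 0.48), with both, and without CTL 5 and CKO 5, and ranged from 0 to 1 over fits without 1 library. Fewer libraries leave fewer degrees of freedom. Pathway genes called higher went from 0 to 2 with DESeq2, and from 0 to 1 over fits without 1 library (Serpinb1a, without CKO 3). Pathway genes called lower went from 0 to 1 with DESeq2. Rela changed sign, from -0.20 to 0.061 with the offset and 0.058 with the offset and replicate block. The cause was not tested. Of 168 log2 fold changes of members under alternatives, 164 moved by less than 1 SD between libraries, and the other 4, of Casp1 and Il18 under both forms of the offset, by more.

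Over all tested genes, 17 were called higher and 15 lower, against 148 and 193 with DESeq2, 5 and 3 with the offset, and 27 and 15 without CKO 3. Same-numbered libraries had correlations of -0.09 to 0.21 and 2 of 5 Cited2 CKO libraries correlated best with their own number, so the numbers were not read as pairs; the replicate block called 15 and 9 genes. Depth limits Nlrp3, Nlrc4, Il1b and Il1rn, whose libraries hold at most 69 counts.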
